A study of Mus musculus with 24 samples.

Results

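The genes of cholesterol synthesis and of its control by the sterol regulatory element-binding proteins (SREBPs) were followed in RNA from the mouse hypothalamus. The 28 members were chosen by name. Of these, 20 encode enzymes of cholesterol synthesis or of its branch to geranylgeranyl pyrophosphate. A further 5 encode SREBPs or the proteins that hold or carry them. The last 3 encode the sterol carrier Stard4, the cholesterol exporter Abca1 and the fatty acid desaturase Fads1. All 28 were among the 18777 gene symbols listed, and all 28 had a mean of at least 1 FPKM (fragments per kilobase of transcript, scaled to library size) over the 24 libraries, as did 13806 genes in all. The filter therefore removed no member.

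The mice were C57BL6 and 15 months old, and had eaten 1 of 4 diets freely from 12 weeks of age. The diets had equal energy (14.4 MJ/kg) and the same 18.8% protein, 63.4% carbohydrate and 17.8% fat, and held leucine, isoleucine and valine, the branched-chain amino acids (BCAA), at 20, 50, 100 or 200% of the AIN93G standard. They are called BCAA20, BCAA50, BCAA100 (the control diet, also labelled Chow) and BCAA200. For every diet 3 females and 3 males gave 1 library per animal, 8 groups in all, and the labels name no transgene or drug. The 6 BCAA100 libraries are labelled lane 2 and the other 18 lane 1, so the control diet and its lane cannot be told apart.

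Cholesterol is built in the cytosol and endoplasmic reticulum from acetyl-CoA, through mevalonate, isoprenoid pyrophosphates, squalene and lanosterol. When sterols are scarce, SCAP escorts an SREBP to the Golgi, where it is cleaved, and the released part enters the nucleus and switches on most genes of the pathway, together with the factors NF-Y and Sp1; when sterols are plentiful, INSIG proteins hold SCAP back. The brain makes its own cholesterol because lipoproteins do not cross the blood-brain barrier, and myelin made by oligodendrocytes holds much of it.

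Promoters of the pathway carry 2 short elements that bear on this control: the sterol regulatory element bound by SREBPs, searched as TCACNCCAC, and the CCAAT box bound by NF-Y, searched as CCAAT, both on either strand and without overlap between the elements. RefSeq windows on GRCm38.p6, from 250 bases before to 50 bases after a start site, were matched by symbol for 23 of the 28 members. Fdps, Fdft1, Sqle, Stard4 and Fads1 had no entry. A CCAAT box lay in a window of 20 of the 23 members (87.0%), against 41.1% of the 27025 genes in the table. Some genes had more than 1 window: counted by window, 21 of 31 member windows held a CCAAT box, against 37.4% of all 32851. The full sterol regulatory element was found in 1 member, Hmgcs1 (4.35%, against 1.44% of all genes), and a shorter core that lies within it, CACCCCAC, in 2 (Hmgcs1 and Acat2; 8.7% against 3.3%). A match describes the letters of a window and not a bound site. Sites that depart from the letters searched were not counted, so a window without a match may still hold an element.

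The windows of 4 members are printed 5′ to 3′ on the sense strand, because the later results turn on them: Hmgcs1 (chr13:119690101-119690400, plus strand) is the reference gene for the variation between animals and holds the sterol regulatory element; Insig1 (chr5:28071162-28071461, plus strand) had the lowest p of the members against both BCAA20 and BCAA100; Idi1 (chr13:8885356-8885655, plus strand) followed Hmgcs1 most closely; and Cyp51 (chr5:4104648-4104947, minus strand) passed the test against myelin expression. Capitals mark the element TCACCCCAC and the CCAAT boxes, which read ATTGG where they lie on the other strand.
Hmgcs1: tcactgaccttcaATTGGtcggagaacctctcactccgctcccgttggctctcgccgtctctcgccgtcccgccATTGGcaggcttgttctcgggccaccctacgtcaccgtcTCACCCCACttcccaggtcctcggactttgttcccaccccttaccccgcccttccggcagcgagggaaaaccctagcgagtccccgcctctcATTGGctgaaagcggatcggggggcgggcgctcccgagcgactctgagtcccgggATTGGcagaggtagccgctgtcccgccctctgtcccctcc
Insig1: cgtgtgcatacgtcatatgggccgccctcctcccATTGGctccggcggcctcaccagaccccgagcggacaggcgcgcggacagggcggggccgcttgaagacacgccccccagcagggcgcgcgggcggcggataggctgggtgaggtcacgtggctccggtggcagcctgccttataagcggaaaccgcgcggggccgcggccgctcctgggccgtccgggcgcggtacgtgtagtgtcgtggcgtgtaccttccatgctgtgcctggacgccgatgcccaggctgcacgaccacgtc
Idi1: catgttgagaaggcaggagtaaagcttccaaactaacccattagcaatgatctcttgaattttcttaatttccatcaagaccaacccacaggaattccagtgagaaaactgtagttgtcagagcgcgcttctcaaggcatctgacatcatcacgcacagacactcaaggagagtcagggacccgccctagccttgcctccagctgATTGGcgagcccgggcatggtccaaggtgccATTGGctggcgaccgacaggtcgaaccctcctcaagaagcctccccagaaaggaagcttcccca
Cyp51: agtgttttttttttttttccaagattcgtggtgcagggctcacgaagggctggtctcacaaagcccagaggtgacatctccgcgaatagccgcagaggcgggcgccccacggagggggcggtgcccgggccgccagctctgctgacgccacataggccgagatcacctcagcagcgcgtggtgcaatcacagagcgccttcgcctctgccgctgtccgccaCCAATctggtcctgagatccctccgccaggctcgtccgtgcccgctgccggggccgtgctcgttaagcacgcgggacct
In the Hmgcs1 window the sterol regulatory element began at −137 from the start site and 4 CCAAT boxes flanked it, the nearest to the start at −45 and 11. Idi1 had CCAAT boxes at −45 and −14, Cyp51 had 1 at −29 and Insig1 had 1 at −216. Among the other members, Mvk had 5 CCAAT boxes and Nsdhl 4.

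Some libraries stood apart in ways that bear on these genes. Slc17a7, which loads glutamate into the vesicles of cortical neurons, reached 106 FPKM or more in 21 libraries. It was at 6.23 FPKM in BCAA50 female replicate 1, and among BCAA100 males at 3.99 FPKM in replicate 5 and 12.6 FPKM in replicate 6. The summed level of 9 hypothalamic markers was 973 and 991 FPKM in the first and second of these libraries, the 2 highest values. It was 13.3 in the third, with the orexin precursor Hcrt at 0 and Mbp, the major myelin protein, at 2352 FPKM. Against a median of 386 FPKM over all libraries, the labelled tissue was thus nearly without its markers in BCAA100 male replicate 6. BCAA20 male replicate 6 went against its sex label, with Xist at 154 FPKM and Ddx3y at 0. Several counts and estimates are therefore also given without these 4 libraries. Leaving them out also removes the 2 libraries highest in hypothalamic markers, and every library kept had Slc17a7 at 106 FPKM or more. Replicate 4 is then the only BCAA100 male, and contrasts with BCAA100 give it the weight of all males. It had the lowest Hmgcs1 (52.2 FPKM), Fdft1 (19.0), Sqle (17.9) and Msmo1 (18.7) of all 24 libraries. Column totals ran from 293850 to 328809 FPKM, and the read depth behind the values is unknown.

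The enzymes of the pathway were measured at levels from 3.33 to 67.1 FPKM, a scale that corrects for gene length. Hmgcs1, which makes HMG-CoA, had the highest mean of the 28 members (67.1 FPKM, above 94.5% of the genes tested). Fads1, the delta-5 desaturase of polyunsaturated fatty acids and a known SREBP target, followed at 62.9 FPKM, and Srebf2, the SREBP that chiefly drives cholesterol synthesis, at 40.6 FPKM. Msmo1, which oxidises the C4 methyl groups of the sterol, averaged 30.6 FPKM and Cyp51, the lanosterol demethylase, 25.5 FPKM. The lowest means were those of Fdps (3.58 FPKM), Hsd17b7 (3.47) and Lbr (3.33), beside a median of 8.12 FPKM over the 13806 genes tested. Lbr, a protein of the inner nuclear membrane, and Tm7sf2 (8.05 FPKM) catalyse the same reduction of the sterol nucleus.

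Animals of the same diet and sex were close to each other in most of these genes. The median within-group SD was 0.204 on the log2 scale over the members, and 0.230 over all genes tested. It was smallest for Srebf2 (0.083) and Fads1 (0.090), and over all 24 libraries 20 members had a coefficient of variation under 20%. The 2 largest within-group SDs belonged to Insig2 (0.736) and Scap (0.441), a partner pair in the retention of SREBPs. Insig2 was at 5.28 to 8.38 FPKM in 10 libraries and at 12.8 to 22.9 FPKM in the other 14, with no library between. Of the low libraries 4 were BCAA200, 3 BCAA100, 2 BCAA20 and 1 BCAA50. Scap was at 4.71 FPKM in BCAA20 male replicate 5 and at 14.8 to 25.4 FPKM in the other 23.

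**Figure D1:**
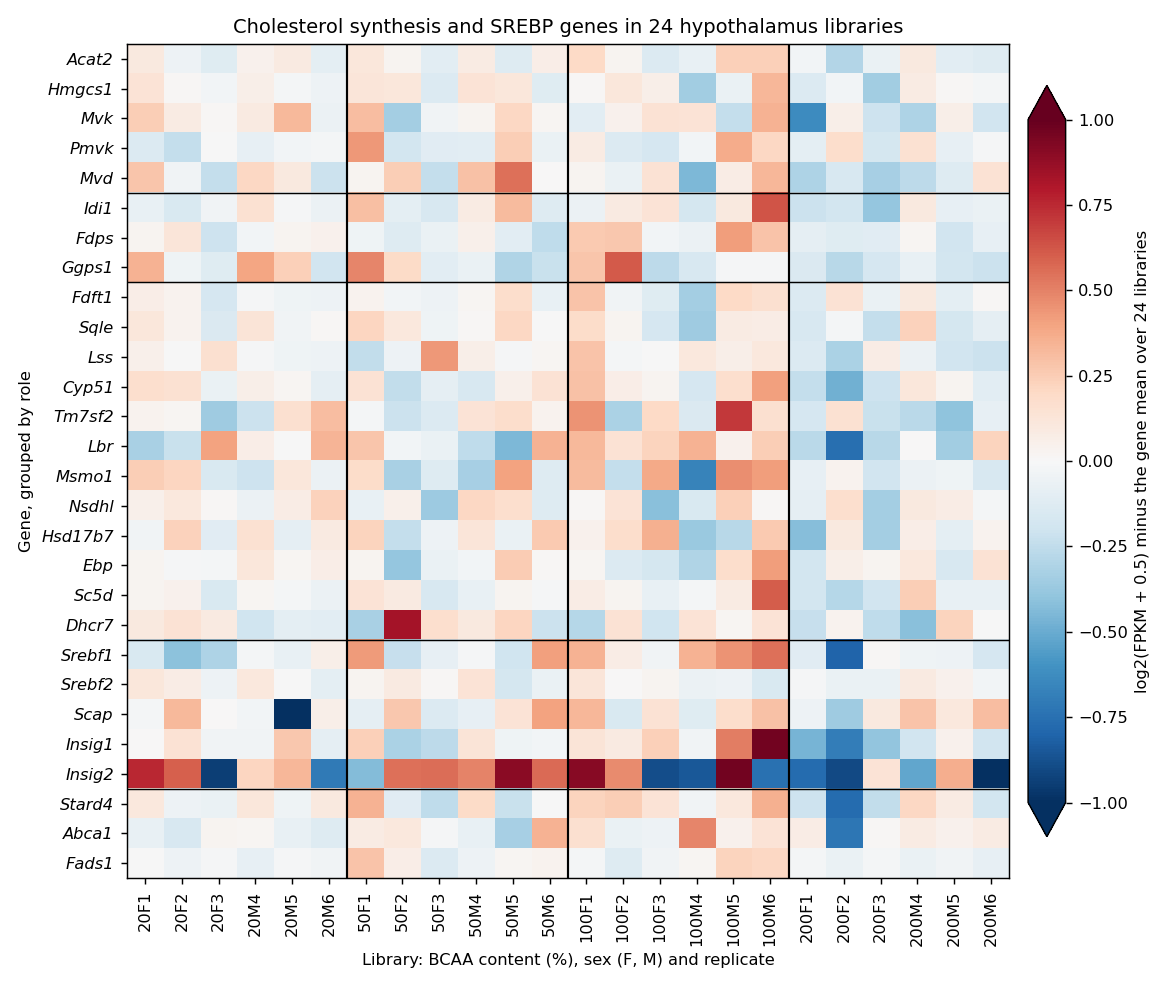
Heat map of the 28 genes (rows, grouped by role) in the 24 libraries (columns, by BCAA content, sex and replicate). Colour is log2(FPKM + 0.5) minus the gene's mean over all libraries, with the scale capped at −1 and 1. Insig1 is highest in BCAA100 male replicate 6 (42.9 FPKM), most BCAA200 columns are pale blue, and Insig2 alternates between high and low libraries on every diet.

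The widest diet contrast within a lane, BCAA200 against BCAA20, asked how BCAA content bears on the pathway. No member passed limma's moderated test at a threshold of 0.05 after Benjamini-Hochberg adjustment, and neither did any of the 13806 genes (0% called; lowest adjusted p = 0.9996). At an unadjusted p under 0.05, 399 genes and 2 members were found. The members were nearly all on 1 side: 25 of 28 had a log2 estimate below 0, with a median of −0.10, beside 55.1% of all genes and a median of −0.01. The estimates were small, from −0.50 to 0.33, and the share of all genes with a lower value at an unadjusted p under 0.05 was 1.73%.

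By role, 4 of the 5 enzymes of the mevalonate branch had estimates below 0, as did all 3 of the isoprenoid steps, 11 of the 12 between squalene and cholesterol and 4 of the 5 regulators. The 3 exceptions were Pmvk, Fdft1 and Scap. Insig1 and Mvk were the 2 members with an unadjusted p under 0.05. Of the marker lists, 7 of 8 tested hypothalamic markers were below 0 (median −0.53), as were 12 of 14 myelin markers (median −0.08). The 9 hypothalamic markers summed to 344 to 479 FPKM on BCAA20 and 170 to 600 on BCAA200, with none at 0. The 14 myelin markers had a median sum of 1726 FPKM on BCAA20 and 1901 on BCAA200, no lower on BCAA200. All 4 blood markers were also below 0 (median −0.68; sums of 290 to 3758 FPKM on BCAA20 and 314 to 1624 on BCAA200), and all 3 tested choroid plexus markers were above 0 (median 0.45; 4 markers summing to 2.37 to 14.7 FPKM on BCAA20 and 3.72 to 379 on BCAA200). With log2 Mbp and log2 Slc17a7 in the model, 25 of 28 members were again below 0; the part of the hypothalamic, blood and choroid plexus markers was not tested.

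Insig1, the SREBP target that retains SCAP, ran from 20.4 to 26.3 FPKM on BCAA20 (median 21.5), from 17.3 to 25.7 on BCAA50 (median 21.2), from 21.2 to 42.9 on BCAA100 (median 24.8) and from 13.2 to 22.4 on BCAA200 (median 17.7). The BCAA200 libraries were the lowest as a set, and 1 of them overlapped the BCAA20 range. The log2 difference between BCAA200 and BCAA20 was −0.36 (SE 0.132, 95% interval −0.63 to −0.08; limma unadjusted p = 0.0138, adjusted p = 0.9996). It was −0.39 without the 4 libraries named above, and between −0.40 and −0.30 when any 1 library was left out.

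Mvk, mevalonate kinase, was at 7.49 to 9.90 FPKM on BCAA20 (median 8.34), 6.09 to 9.79 on BCAA50 (median 7.97), 6.55 to 10.1 on BCAA100 (median 8.37) and 4.89 to 8.17 on BCAA200 (median 6.75). Here too the groups overlapped, with 2 BCAA200 libraries inside the BCAA20 range. The difference between BCAA200 and BCAA20 was −0.32 (SE 0.131; limma unadjusted p = 0.0243, adjusted p = 0.9996), and −0.23 without BCAA200 female replicate 1, its lowest library.

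The next members by p were Ggps1, Cyp51, Lbr and Stard4. Ggps1, which makes geranylgeranyl pyrophosphate for protein prenylation, was at 5.13 to 7.93 FPKM on BCAA20 (median 6.40), 4.71 to 8.49 on BCAA50 (median 5.55), 4.85 to 9.32 on BCAA100 (median 5.86) and 4.79 to 5.61 on BCAA200 (median 5.18). Its BCAA200 libraries lay in a narrow band at the low end, overlapping the other diets, and the difference from BCAA20 was −0.28 (SE 0.138). Cyp51 was at 23.7 to 28.6 FPKM on BCAA20 (median 26.0), 21.3 to 28.1 on BCAA50 (median 25.0), 22.5 to 33.8 on BCAA100 (median 27.6) and 18.0 to 27.5 on BCAA200 (median 22.6). Its 4 lowest BCAA200 libraries lay below every BCAA20 library and the other 2 overlapped them, with a difference of −0.19 (SE 0.097).

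Lbr was at 2.50 to 4.47 FPKM on BCAA20 (median 3.33), 2.25 to 4.28 on BCAA50 (median 3.13), 3.36 to 4.28 on BCAA100 (median 3.92) and 1.73 to 3.88 on BCAA200 (median 2.60). The difference between BCAA200 and BCAA20 was −0.28 (SE 0.155), with overlapping groups. Stard4, which moves sterols between membranes, was at 6.08 to 6.94 FPKM on BCAA20 (median 6.51), 5.29 to 8.25 on BCAA50 (median 6.11), 6.20 to 8.32 on BCAA100 (median 7.32) and 3.54 to 7.43 on BCAA200 (median 5.51). Its BCAA20 libraries were close together and lay inside the wider BCAA200 range, with a difference of −0.21 (SE 0.120). No member had BCAA200 and BCAA20 libraries without overlap in either direction. Of all genes, 0.101% had every BCAA200 library below every BCAA20 library.

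Among the other regulators and targets, the precision of the estimates differed widely. Srebf2 was at 37.8 to 43.8 FPKM on BCAA20 (median 41.6), 35.9 to 44.5 on BCAA50 (median 41.2), 36.3 to 44.0 on BCAA100 (median 40.0) and 38.7 to 43.2 on BCAA200 (median 40.0). All 4 diets overlapped, and the difference between BCAA200 and BCAA20 was −0.03 (95% interval −0.15 to 0.09). Fads1 was at 59.3 to 62.4 FPKM on BCAA20 (median 61.7), 57.1 to 76.4 on BCAA50 (median 64.0), 57.4 to 73.2 on BCAA100 (median 62.8) and 59.2 to 62.0 on BCAA200 (median 60.6), again with overlap of all diets and a difference of −0.01 (95% interval −0.14 to 0.11).

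Scap was at 4.71 to 23.98 FPKM on BCAA20 (median 19.0), 17.3 to 25.4 on BCAA50 (median 19.5), 17.1 to 24.2 on BCAA100 (median 21.3) and 14.8 to 23.8 on BCAA200 (median 20.5). BCAA20 held the 1 low library, and the positive estimate of 0.33 (SE 0.239) became 0.01 without it. Insig2 was at 5.75 to 19.8 FPKM on BCAA20 (median 14.0), 8.38 to 21.9 on BCAA50 (median 17.2), 6.01 to 22.9 on BCAA100 (median 11.5) and 5.28 to 15.0 on BCAA200 (median 7.21). Each diet held low and high libraries, and the difference of −0.50 had an SE of 0.396.

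**Figure D2:**
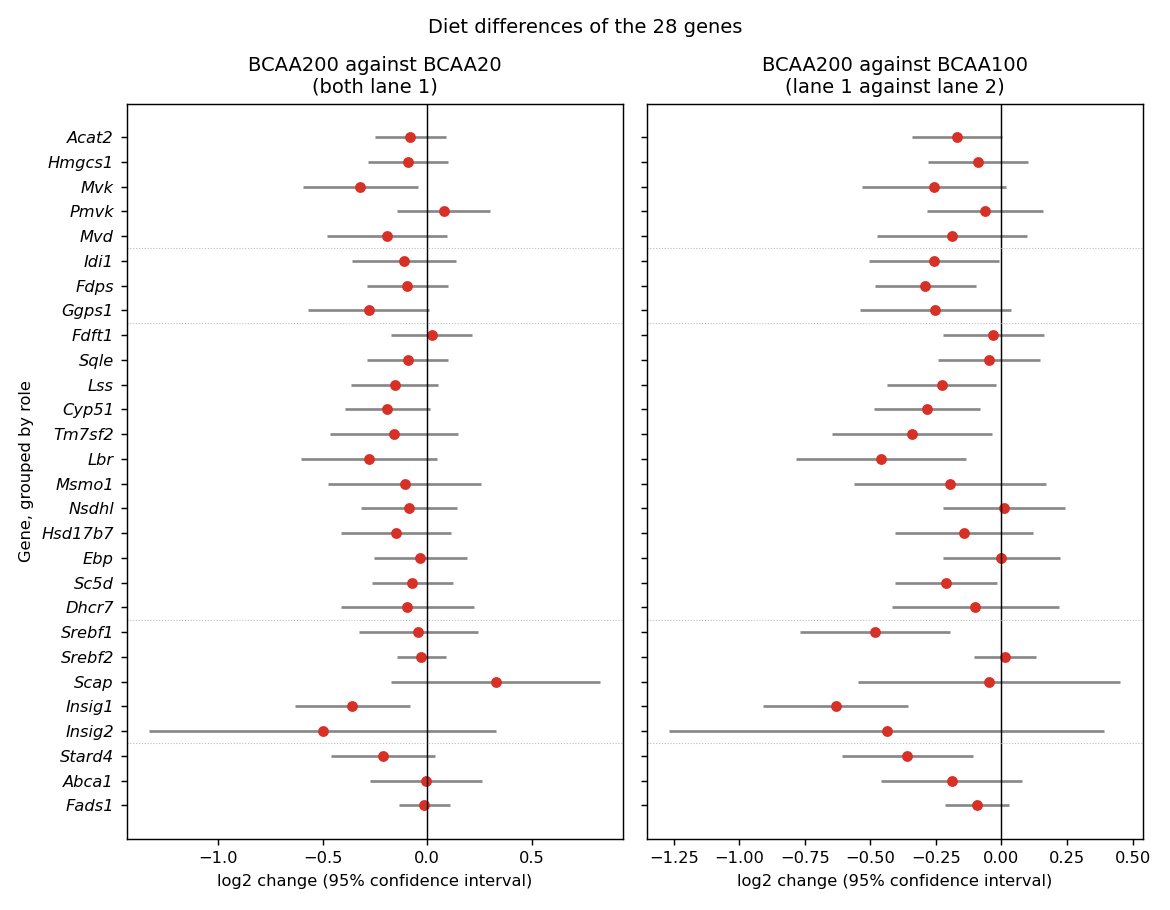
Log2 differences of the 28 genes for BCAA200 against BCAA20 (left, both lane 1) and BCAA200 against BCAA100 (right, lane 1 against lane 2). Points are limma estimates, averaged over the sexes, and lines are 95% confidence intervals. Of the points, 25 on the left and 26 on the right lie below 0, and the intervals of Insig1 exclude 0 in both panels before adjustment.

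The other lane 1 comparisons set each pair of these 3 diets side by side. BCAA200 against BCAA50 gave 26 of 28 members below 0 (median −0.14, beside 53.1% of all genes and a median of −0.01), whereas BCAA50 against BCAA20 gave 11 of 28 (median 0.02). In each, no member passed limma's adjusted test and 0% of all genes did, with 348 and 370 genes at an unadjusted p under 0.05. These comparisons share libraries with the previous one. With 1 library left out, 23 to 27 members were below 0 for BCAA200 against BCAA50. For BCAA50 against BCAA20 the count was 9 to 16. Without the 4 libraries named above, Insig1 moved from −0.27 to −0.18 in the first and from −0.09 to −0.21 in the second. At an unadjusted p under 0.05, 2 members had lower values on BCAA200 than on BCAA50, where 1.35% of all genes did. They were Mvd, mevalonate diphosphate decarboxylase (−0.32, SE 0.136), and Insig2 (−0.90, SE 0.396). The slope per doubling of BCAA content over the 3 lane 1 diets was below 0 for 25 of 28 members (median −0.03), again with 0% of all genes called and 391 genes at an unadjusted p under 0.05. It was −0.11 per doubling for Insig1 (SE 0.039) and −0.10 for Mvk (SE 0.039), the 2 members with a limma unadjusted p under 0.05 (0.0118 and 0.0214; adjusted p = 0.9998).

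BCAA200 had the lowest mean of the 4 diets for 22 of the 28 members and the highest for 0, while over all genes tested it was lowest for 32.2% and highest for 19.4%. BCAA100 had the highest mean for 17 members, against 44.0% of all genes. Without the 4 libraries named above, BCAA200 was lowest for 20 members (24.7% of all genes) and BCAA100 was highest for 10 (37.4% of all genes). The median deviation of the 28 genes from their own means was also lowest on BCAA200 and highest on BCAA100. Its median over 6 libraries was −0.11 with BCAA200, 0.09 with BCAA100, 0.02 with BCAA50 and 0.01 with BCAA20. The ranges overlapped: BCAA200 libraries ran from −0.19 to 0.07 and BCAA20 libraries from −0.06 to 0.05. The 3 BCAA200 females were the lowest of all 24 libraries (−0.19, −0.15 and −0.14). Over all genes tested, these females were at −0.01, −0.02 and −0.07. BCAA200 males ran from −0.08 to 0.07.

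The comparison with the control diet is also a comparison of lanes. BCAA200 against BCAA100 gave 26 of 28 members below 0, with a median of −0.19, beside 62.6% of all genes and a median of −0.05. No member passed limma's adjusted test. Of all 13806 genes, 2 passed (0.0145%). At an unadjusted p under 0.05, 10 members were lower on BCAA200 and 0 were higher, where 7.52% of all genes were lower. The 10 members were Idi1 and Fdps, then Lss, Cyp51, Tm7sf2, Lbr and Sc5d, and Insig1, Srebf1 and Stard4. They held 0 of the 5 mevalonate enzymes and 5 of the 12 enzymes between squalene and cholesterol. Fdft1, Sqle, Msmo1, Nsdhl, Hsd17b7, Ebp and Dhcr7 were not among them. When the 4 libraries named above were left out, replicate 4 was the only BCAA100 male, and Insig1 had −0.37, Srebf1 −0.43 and Lbr −0.53. The estimate of Idi1 then moved from −0.26 to −0.08, that of Sc5d from −0.21 to −0.09 and that of Tm7sf2 from −0.34 to −0.15.

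Insig1 had the estimate with the lowest p, −0.63 (SE 0.132, 95% interval −0.91 to −0.36; limma adjusted p = 0.122). BCAA100 male replicate 6 was its highest library at 42.9 FPKM. With replicate 4 as the only BCAA100 male, the estimate without the 4 libraries named above was −0.37. It was −0.51 without BCAA100 male replicate 6. It passed when BCAA50 female replicate 1 or BCAA100 male replicate 4 was left out (lowest limma adjusted p = 0.0256, with −0.76). Srebf1, which encodes the SREBPs that drive fatty acid synthesis, ran from 18.1 to 27.5 FPKM on BCAA100 (median 23.8), 13.9 to 19.4 on BCAA20 (median 17.1), 15.8 to 25.2 on BCAA50 (median 18.0) and 10.5 to 18.7 on BCAA200 (median 17.5). All but 1 of its BCAA100 libraries lay above the BCAA200 range, and its difference was −0.48 (SE 0.136; limma adjusted p = 0.208). For Fdps, farnesyl diphosphate synthase, the values were 3.40 to 4.92 FPKM on BCAA100 (median 4.37), 3.00 to 3.92 on BCAA20 (median 3.63), 2.90 to 3.70 on BCAA50 (median 3.32) and 3.04 to 3.61 on BCAA200 (median 3.27), a difference of −0.29 (SE 0.093; limma adjusted p = 0.253). That of Fdps was −0.15 without the 4 libraries named above.

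Further along the pathway, Cyp51 had a difference between BCAA200 and BCAA100 of −0.28 (SE 0.097), which was −0.13 without the 4 libraries named above. Lbr had a difference of −0.46 (SE 0.155). Stard4 had a difference of −0.36 (SE 0.120). Every member overlapped between the diets, while 0.391% of all genes had all BCAA200 libraries below all BCAA100 libraries. Srebf2 (0.01) and Nsdhl (0.01), the 2 members above 0, had differences near 0.

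Markers of other cells also had estimates on 1 side in this comparison. All 14 myelin and oligodendrocyte markers had estimates below 0 (median −0.33), with none at 0 in any library. Their summed levels ran from 1472 to 4434 FPKM on BCAA100 (median 1853) and from 819 to 2112 on BCAA200 (median 1901). The median sum was thus no lower on BCAA200, and the highest sum was that of BCAA100 male replicate 6. All 4 tested cortical markers had estimates above 0 (median 0.97), with 5 markers summing to 70.4 to 462 FPKM on BCAA100 and 342 to 750 on BCAA200. With log2 Mbp and log2 Slc17a7 in the model, 20 of 28 members were below 0 (median −0.14) and Insig1 had −0.43 (limma adjusted p = 0.377); without the 4 libraries named above, 19 were. With libraries rescaled to an equal median, 22 were. In bulk tissue, fewer cells of a type and less RNA per cell cannot be told apart.

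The low-BCAA diets against the same BCAA100 libraries gave fewer members below 0. BCAA20 had 18 of 28 (median −0.08, beside 60.0% of all genes) and BCAA50 had 20 of 28 (median −0.04, beside 61.9%), with 0% of genes called by limma in either and 979 and 1056 genes at an unadjusted p under 0.05. Without the 4 libraries named above, each count was 12, with replicate 4 the only BCAA100 male left. Srebf1 on BCAA20 (−0.44, SE 0.136; limma adjusted p = 0.537) and Fdps on BCAA20 (−0.19, SE 0.093) had an unadjusted p under 0.05, where 4.15% of all genes were lower. On BCAA50, Fdps (−0.28, SE 0.093) and Insig1 (−0.36, SE 0.132; limma adjusted p = 0.539) did, where 4.87% of all genes were lower. With the 4 libraries named above left out, Fdps had −0.07 on BCAA20 and −0.16 on BCAA50, Insig1 had −0.19 on BCAA50 and Srebf1 had −0.41 on BCAA20. Since the 3 comparisons share their control libraries, their likeness is no separate evidence.

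**Figure D3:**
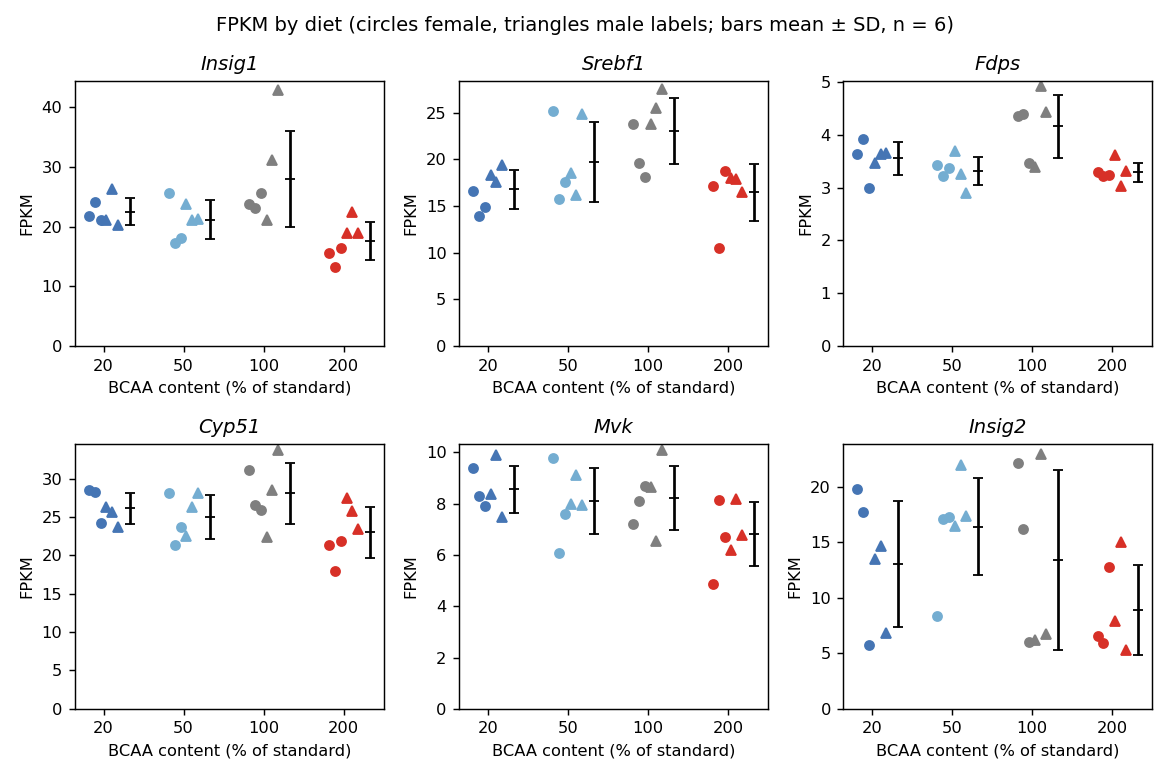
FPKM of 6 genes by BCAA content of the diet. Circles are libraries labelled female, triangles libraries labelled male, and bars the mean ± SD of 6 libraries. For Insig1, Srebf1 and Fdps the BCAA100 libraries reach highest (42.9, 27.5 and 4.92 FPKM), and Insig2 falls into low and high libraries on each diet.

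Hmgcs1 was at 64.4 to 73.3 FPKM on BCAA20 (median 66.6), 60.8 to 73.5 on BCAA50 (median 72.3), 52.2 to 83.9 on BCAA100 (median 68.5) and 52.4 to 70.8 on BCAA200 (median 65.6). All diets overlapped, and both extremes lay in BCAA100 males. Idi1, which interconverts the isopentenyl and dimethylallyl building blocks, was at 4.82 to 6.06 FPKM on BCAA20 (median 5.21), 4.77 to 6.86 on BCAA50 (median 5.38), 4.73 to 8.62 on BCAA100 (median 5.79) and 4.02 to 5.81 on BCAA200 (median 4.88). Its highest library was BCAA100 male replicate 6, and the groups overlapped. Sqle, squalene epoxidase and a slow step of the pathway, was at 20.9 to 25.2 FPKM on BCAA20 (median 23.5), 22.4 to 26.8 on BCAA50 (median 24.1), 17.9 to 26.2 on BCAA100 (median 23.8) and 19.5 to 27.2 on BCAA200 (median 21.1), with overlap of all diets.

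Dhcr7, which completes cholesterol from its 7-dehydro precursor, was at 4.48 to 5.80 FPKM on BCAA20 (median 5.21), 4.05 to 9.65 on BCAA50 (median 5.77), 4.18 to 5.82 on BCAA100 (median 5.53) and 3.78 to 6.16 on BCAA200 (median 4.78). Its highest library was BCAA50 female replicate 2, and the rest overlapped. Abca1, which exports cholesterol to apolipoproteins and is driven by liver X receptors rather than SREBPs, was at 5.53 to 6.36 FPKM on BCAA20 (median 5.89), 4.83 to 8.05 on BCAA50 (median 6.40), 5.93 to 8.94 on BCAA100 (median 6.66) and 3.59 to 6.62 on BCAA200 (median 6.52). Its difference between BCAA200 and BCAA20 was −0.01 (95% interval −0.28 to 0.26), with overlap of all diets.

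Males were compared with females over the 4 diets. Of 28 members, 21 had higher estimates in males (58.8% of all genes did), none passed limma's adjusted test, and 9 genes did (0.0652%). Insig1 (0.22, SE 0.093) and Srebf1 (0.21, SE 0.096) had an unadjusted p under 0.05 (limma adjusted p = 0.941), where 2.86% of all genes were higher in males. All 14 myelin markers also had higher estimates in males, and their part was not tested. Without the 4 libraries named above, 15 members were above 0. The BCAA200 against BCAA20 difference did not pass a test of its dependence on sex in any member or gene (0% called by limma; 491 genes at an unadjusted p under 0.05). Scap (1.07, SE 0.477) and Cyp51 (0.41, SE 0.194) had an unadjusted p under 0.05, both with a higher estimate in males, where 1.77% of all genes did. Scap averaged 14.4 ± 8.45 FPKM (SD, n = 3) in BCAA20 males, which include the low library at 4.71 FPKM, and 20.7 ± 2.89 in BCAA20 females. In females Cyp51 averaged 20.4 ± 2.09 FPKM (SD, n = 3) under the BCAA200 diet and 27.0 ± 2.44 under BCAA20. In males it averaged 25.6 ± 2.03 on BCAA200 and 25.2 ± 1.35 on BCAA20. Insig1 averaged 15.1 FPKM under BCAA200 and 22.4 under BCAA20 in females, and 20.1 and 22.6 in males. Its sex difference was 0.40 (limma unadjusted p = 0.147). The BCAA20 male means include replicate 6, which went against its sex label. The sex difference was 1.41 for Scap, 0.37 for Cyp51 and 0.33 for Insig1 without the 4 libraries named above.

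Mbp served as a measure of oligodendrocyte content, since myelin is the main store of brain cholesterol. Mbp spanned 457 FPKM (BCAA200 female replicate 2) to 2352 FPKM (BCAA100 male replicate 6). Within groups, the slope of log2 level on log2 Mbp was above 0 for 22 of 28 members (57.4% of all genes; member median 0.08). Of all 13805 genes tested, 705 passed limma's adjusted test (5.11%), and 1 member did. All 13 other myelin markers passed, with a median slope of 0.91.

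Cyp51 was the member that passed, with a slope of 0.26 per doubling of Mbp (SE 0.062; limma adjusted p = 0.0212). Its lowest library, at 18.0 FPKM, was that with the lowest Mbp, and its highest, at 33.8 FPKM, that with the highest. The call held in lane 1 libraries (slope 0.25, limma adjusted p = 0.0272). It was lost with Slc17a7 as a further covariate (slope 0.20, limma adjusted p = 0.0875) and without the 4 libraries named above (slope 0.24, limma adjusted p = 0.230). It was also lost when BCAA50 female replicate 1, BCAA50 female replicate 2 or BCAA100 male replicate 6 was left out (highest limma adjusted p = 0.132). Cyp51 overlaps Akap9 on the opposite strand, and the strand setting of the quantification was not stated in the protocols.

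Srebf1 had the next lowest p (slope 0.33, SE 0.097; limma adjusted p = 0.0582), followed by Insig1 (0.28, SE 0.0997; limma adjusted p = 0.122). With Cyp51, Sc5d (lathosterol desaturase, 0.18) and Stard4 (0.21) they made 5 members with a slope above 0 at an unadjusted p under 0.05, where 11.6% of all genes had one. Dhcr7 was the 1 member with a slope below 0 at that level (−0.30, SE 0.117; limma adjusted p = 0.159), where 7.32% of all genes had one. Hmgcs1 (0.03), Fdft1 (0.01) and Lss (0.01) had slopes near 0. Without the 4 libraries named above, the members divided evenly, 14 above and 14 below 0, with Insig1 at 0.09, Stard4 at 0.09 and Sc5d at 0.05. Single libraries carried much of these slopes. Without BCAA100 male replicate 6, Sc5d had 0.08 and Insig1 0.17; without BCAA200 female replicate 2, Stard4 had 0.13; and without BCAA50 female replicate 2, Dhcr7 had −0.17.

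**Figure D4:**
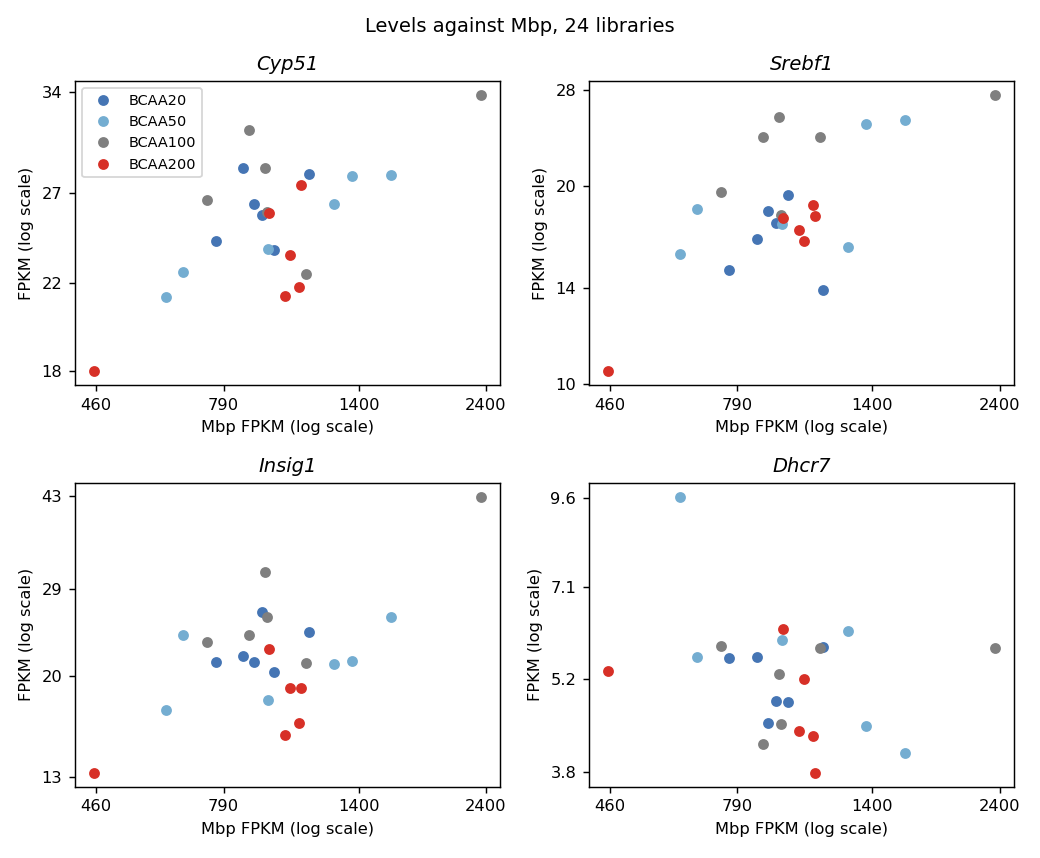
FPKM of Cyp51, Srebf1, Insig1 and Dhcr7 against Mbp FPKM in 24 libraries, coloured by diet, both axes on a log scale. The library at the far right is BCAA100 male replicate 6 (Mbp 2352 FPKM) and the one at the far left is BCAA200 female replicate 2 (457 FPKM), and the highest and lowest values of Cyp51, Srebf1 and Insig1 lie in these libraries.

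BCAA intake, in a unit that was not stated, averaged 0.417 ± 0.0344 in the BCAA20 mice (SD, n = 6 per diet) and 1.01 ± 0.0808 in the BCAA50 mice. It was 2.12 ± 0.272 in the BCAA100 mice and 5.26 ± 0.559 in the BCAA200 mice, and the ranges did not overlap. In the authors' deposited table, 26 of 28 members had a negative Pearson R with intake over the 24 animals, with a median R of −0.24, and so did 54.1% of the genes tested. Mvk had the strongest (R = −0.46, P = 0.0221) and was the 1 member with P under 0.05 in the authors' deposited table. Of the 13806 genes tested here, 321 had a P under 0.05 there. Because intake forms 4 clusters, intake and diet cannot be told apart in these coefficients. Within groups, the slope on log2 intake was below 0 for 23 of 28 members (49.6% of all genes; member median −0.28), with 0 members at a limma unadjusted p under 0.05 and 0% of all genes called (419 genes at an unadjusted p under 0.05). In lane 1 libraries alone, 14 of 28 were below 0.

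Variation between animals of the same group was read against Hmgcs1, the most abundant of the 28 genes. On log2 Hmgcs1, the within-group slope was above 0 for 22 of the other 27 members, with a median of 0.40, beside 49.3% of all genes and a median of −0.01. No member passed limma's adjusted test, and 3 of 13805 genes did (0.0217%). At an unadjusted p under 0.05, 10 members had a slope above 0, where 3.91% of all genes did. Their roles spread over the pathway: Idi1 and Mvd before squalene, Fdft1 and Sqle at squalene, Msmo1, Nsdhl, Hsd17b7, Ebp and Sc5d after lanosterol, and Insig1 among the regulators.

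Idi1 followed most closely, with a slope of 1.10 (SE 0.208, 95% interval 0.66 to 1.54; limma adjusted p = 0.0832). A slope of 1 would mean that, on average, Idi1 doubled where Hmgcs1 doubled. Idi1 passed with log2 Mbp in the model (limma adjusted p = 0.0307), and also without BCAA50 female replicate 2 (limma adjusted p = 0.0255). Its slope was 0.78 without the 4 libraries named above (limma adjusted p = 0.403). For Mvd the slope was 1.14 (SE 0.274; limma adjusted p = 0.166), Sc5d 0.71 (SE 0.199), Sqle 0.65 (SE 0.211) and Fdft1, squalene synthase, 0.58 (SE 0.219).

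Abca1, the exporter, showed a slope of −0.72 (SE 0.319; limma adjusted p = 0.417), the 1 member below 0 at an unadjusted p under 0.05, where 6.87% of all genes were. Lbr (−0.62), Lss (−0.42), Insig2 (−0.32) and Srebf1 (−0.23) also had slopes below 0 without reaching that level. Srebf2, which encodes the factor thought to drive Hmgcs1, had a slope of 0.03 (95% interval −0.31 to 0.36).

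Several of these slopes depended on single libraries. With the 4 libraries named above removed, 16 of 27 slopes were above 0 and the median was 0.10. Insig1 then had −0.38 in place of 0.85, Sc5d 0.29, and Mvd 1.15. Cyp51 moved from 0.38 to −0.50, Srebf1 from −0.23 to −1.37 and Lbr from −0.62 to −1.57. Abca1 moved from −0.72 to −1.23 and Lss from −0.42 to −0.88, while Nsdhl moved from 0.59 to 1.27. Without BCAA100 male replicate 4, which had the lowest Hmgcs1, the slopes were 0.27 for Fdft1, 0.36 for Insig1, 0.19 for Msmo1 and 0.18 for Ebp. Without BCAA100 male replicate 6, Sc5d had 0.37 and Hsd17b7 0.29, while Nsdhl had 1.19 and Abca1 −1.17. In lane 1 libraries, 19 of 27 were above 0.

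**Figure D5:**
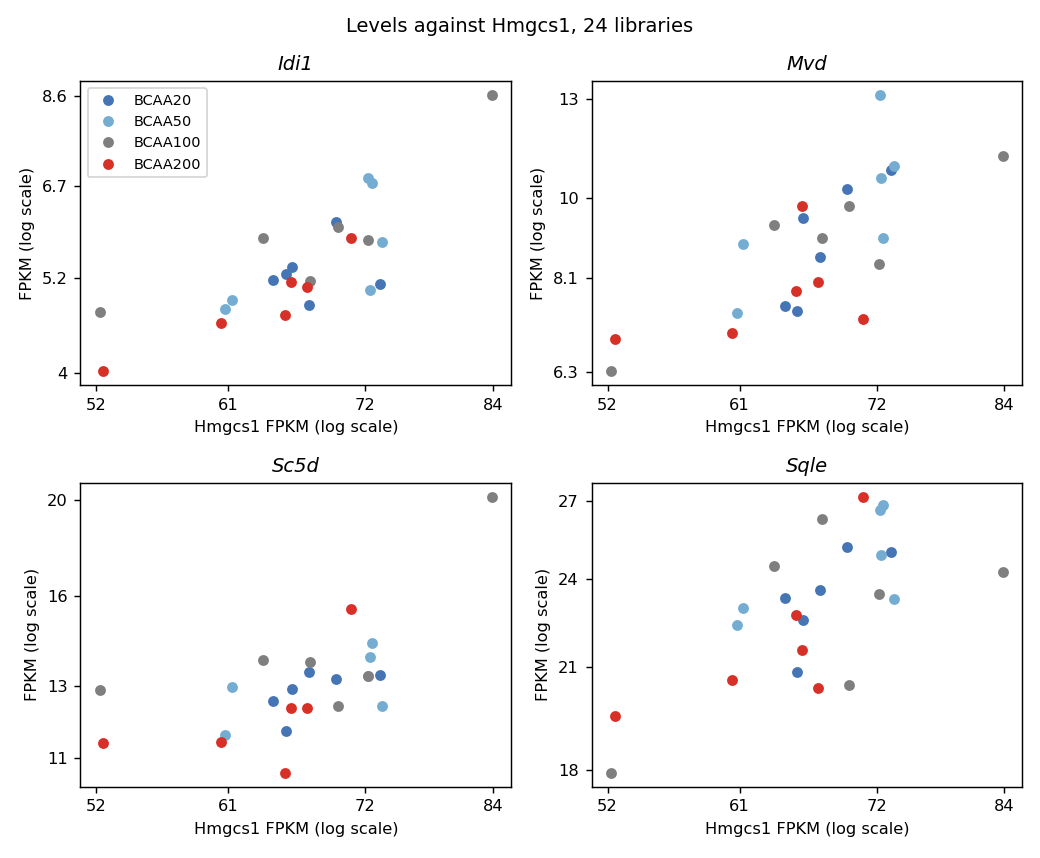
FPKM of Idi1, Mvd, Sc5d and Sqle against Hmgcs1 FPKM in 24 libraries, coloured by diet, both axes on a log scale. The highest Hmgcs1 library (83.9 FPKM) is BCAA100 male replicate 6, which is also the highest in Idi1 (8.62 FPKM) and Sc5d (20.1 FPKM), and the lowest is BCAA100 male replicate 4 (52.2 FPKM).

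Genes next to the module in lipid metabolism were read from 3 lists. In BCAA200 against BCAA20, 5 of 8 genes of fatty acid synthesis and desaturation had estimates below 0 (median −0.03), 3 of 8 of sterol export and liver X receptor signalling (median 0.02) and 5 of 9 of intracellular sterol transport and conversion (median −0.02). None passed limma's adjusted test. Stard3, a cholesterol carrier of late endosomes, had −0.28 (SE 0.120; limma unadjusted p = 0.0296). Against BCAA100, the elongase Elovl5 had −0.33 (SE 0.1004; limma adjusted p = 0.25).

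Against Mbp, 2 of 8 genes of fatty acid synthesis, 0 of 8 of sterol export and 4 of 9 of sterol transport passed, where 5.11% of all genes did. Scd2 (slope 0.35, limma adjusted p = 0.0076) and Scd1 (0.47, limma adjusted p = 0.0386), stearoyl-CoA desaturases, rose with Mbp. So did Cyp27a1, a sterol hydroxylase (1.01, limma adjusted p = 0.00235), the lysosomal sterol carrier Npc2 (0.28, limma adjusted p = 0.0188) and the lysosomal lipase Lipa (0.40, limma adjusted p = 0.0236). Cyp46a1, the neuronal cholesterol 24-hydroxylase, fell with Mbp (slope −0.33, limma adjusted p = 0.0245).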

How the data were processed

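RNA from the hypothalamus of 24 mice was sequenced from stranded TruSeq libraries, per the labels' protocols. Gene levels were deposited by the authors as FPKM, and TopHat2 2.0.14, StringTie 1.2.4 and GRCm38 are named in the submitters' processing notes; strand settings were not stated there. The authors also deposited a table of Pearson correlation coefficients (a score from −1 to 1) with BCAA intake and their p-values, which are theirs. Groups follow the labels. FPKM keeps no read depth: 11.9% of 37263 low values lay within 5% of a whole multiple, where evenly spread values give 10%. A count test was therefore not used.

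Genes averaging 1 FPKM or more were kept and put on the log2(FPKM + 0.5) scale, so fold differences of low genes are understated. limma 3.58.1 in R 4.3.3 (trend and robust variance) was fitted to the 8 group means, with contrasts averaged over the sexes, or to group means plus 1 log2 covariate for slopes. Tests were two-sided with Benjamini-Hochberg adjustment over all genes, at a threshold of 0.05, and were checked on simulated data. Alternatives changed the pseudocount, filter, scaling, weights, replicate block, covariates and libraries. Values per diet are given for members past the threshold, for the 6 lowest p against BCAA20 and BCAA100, and for a named set. Cyp51, Srebf1, Tm7sf2, Fdft1, Ggps1 and Mvd overlap an annotated gene that averaged over 1 FPKM, as Fads1 does a miRNA gene; Hmgcs1, Idi1, Fdps, Lss, Lbr, Srebf2, Scap and Insig2 overlap genes that were unlisted or lower, and the sharing of reads between them was not stated. Members and lists were chosen with earlier results of these data known. A further list of cholesterol synthesis and uptake genes is not reported here, for a reason unrelated to its values.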

Additional observations from a re-analysis of the deposited data

Results flagged for a closer look

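Of 112 sets of 6 libraries (28 genes on 4 diets), 8 held a library whose gap to the next was large for the range of its set; chance flags about 1 set in 20. BCAA100 male replicate 6 was the highest for Idi1 (8.62 FPKM, others 4.73 to 5.99) and for Sc5d (20.1 FPKM, others 12.4 to 13.8). BCAA200 female replicate 2 was the lowest for Srebf1 (10.5 FPKM, others 16.5 to 18.7) and for Abca1 (3.59 FPKM, others 6.27 to 6.62), and it also had the lowest Mbp. Sc5d was high in BCAA200 male replicate 4 (15.5 FPKM, others 10.6 to 12.4), Dhcr7 in BCAA50 female replicate 2 (9.65 FPKM, others 4.05 to 6.12) and Abca1 in BCAA100 male replicate 4 (8.94 FPKM, others 5.93 to 7.01). Scap was low in BCAA20 male replicate 5 (4.71 FPKM, others 18.7 to 23.98).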

How the results depend on the processing

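No called value changed sign. The count of members below 0 in BCAA200 against BCAA20 was 24 to 26 when 1 library was left out, and in BCAA200 against BCAA100 it was 23 to 28, with 0 to 1 members called. Leaving out 1 library gave 5 to 11 members below 0 for males against females, 3 to 10 for the sex difference, 3 to 11 for the slope on Mbp with 0 to 3 called, and 0 to 1 called for the slope on Hmgcs1. Without the 4 libraries that stood apart, members below 0 numbered 14 for Mbp (0 called), 11 for Hmgcs1, 12 for BCAA50 against BCAA100 and 13 for males against females. In lane 1 alone they numbered 8 for Hmgcs1 and 14 for intake. With Slc17a7 added, Mbp had 12 below 0 and 0 called. With Mbp, or Mbp and Slc17a7, 1 member was called for Hmgcs1. Equal column sums gave 2 below 0 for the sex difference, array weights gave 20 for BCAA50 against BCAA20, and a filter at 5 FPKM gave 3 for Hmgcs1. Causes were not tested.

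Replicate numbers did not pair animals: 6 of 36 same-number pairs of deviations correlated above 0.1 (mean 0.02), and 7 of 24 libraries correlated best with their own number. With a replicate block, 25 members were below 0 in BCAA200 against BCAA20 and 0 were called on Mbp, and the sex comparison could not be fitted. Depth is unknown, so counting error cannot be given.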
